A study of Rattus norvegicus with 8 samples.

Results

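The genes described here are heat shock proteins, their regulators, and genes of the unfolded protein response, 46 in all, taken from a written list of cytosolic and small heat shock proteins, mitochondrial chaperones, endoplasmic reticulum chaperones and stress factors. A member counted as measured where the array annotation gave it at least 1 probe set that names that gene alone, and 43 of the 46 members were measured, through 386 probe sets, among 17309 genes in the series. RNA came from the left ventricle of male rats aged 2 months on standard chow, with 1 whole-transcript array per animal and 4 arrays in each of 2 strains. SHR, the spontaneously hypertensive rat, is the inbred parent, and PD5 is a minimal congenic strain, bred so that a chromosome segment of another strain replaces the SHR copy. All animals therefore share the hypertensive background, no treatment is labelled, and the sources used here do not give the extent of the segment. Values are log2 intensities, and a gene value is the mean of its probe sets. Because probe sets differ in brightness, levels are compared between arrays and not between genes.

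Chaperones bind unfolded proteins and help them fold. In the cytosol the heat shock factors HSF1 and HSF2 bind heat shock elements in promoters and raise chaperone transcription when unfolded proteins accumulate. The endoplasmic reticulum has its own sensors, and their effectors ATF6, XBP1 and ATF4 raise reticulum chaperones, degradation factors and the pro-death factor CHOP. The heart muscle cell also carries large amounts of small heat shock proteins, which bind filaments of the sarcomere and the desmin network.

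No member passed the test over all genes. In limma, 0 of 43 members passed an adjusted p of 0.05, where 0.052% of all genes passed, and the smallest adjusted p among members was 0.668. At an unadjusted p under 0.05 there were 3 members, or 6.98%, beside 5.68% of all genes: the J-domain gene Dnajb5, higher in PD5 (2.77% of all genes were higher at that p), and the HSP90 co-chaperone gene Chordc1 and the reticulum degradation gene Herpud1, both lower (2.91% of all genes). The groups did not overlap in 2 members, or 4.65%, beside 3.46% of all genes: Dnajb5 was higher (1.58% of all genes) and Herpud1 lower (1.88%). These shares lay near the background.

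The differences were small. They ran from -0.21 for Dnaja1 to 0.22 for Dnajb5 on the log2 scale. For all 43 measured members the 95% interval lay within a 1.5-fold change in either direction. For 40 it lay within 1.3-fold, the exceptions being Hsph1, Dnaja1 and Trib3. Hspa1a and Hspa1b are not among the 43. The intervals of their shared probe sets were wider, at -0.25 to 0.60, -0.25 to 0.94 and -0.53 to 0.46 on the log2 scale. Over the 43 members the SD between animals of a strain was small, with a median of 0.079, beside 0.14 over all genes. The log2 difference was below 0 in 31 of 43 members, with a median of -0.04, while 49.9% of all genes were below 0. This count was 28 without PD5 210 and SHR 219, the arrays that correlate least with the others, and 24 when a gene was taken as the median of its probe sets, where the median difference of the members was -0.005. Of the 42 members with 2 or more probe sets 30 were below 0, and 27 were when the probe set with the largest difference was left out of each. By its construction that step mostly brings values towards 0, and it turned the sign of 9 members.

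**Figure D1:**
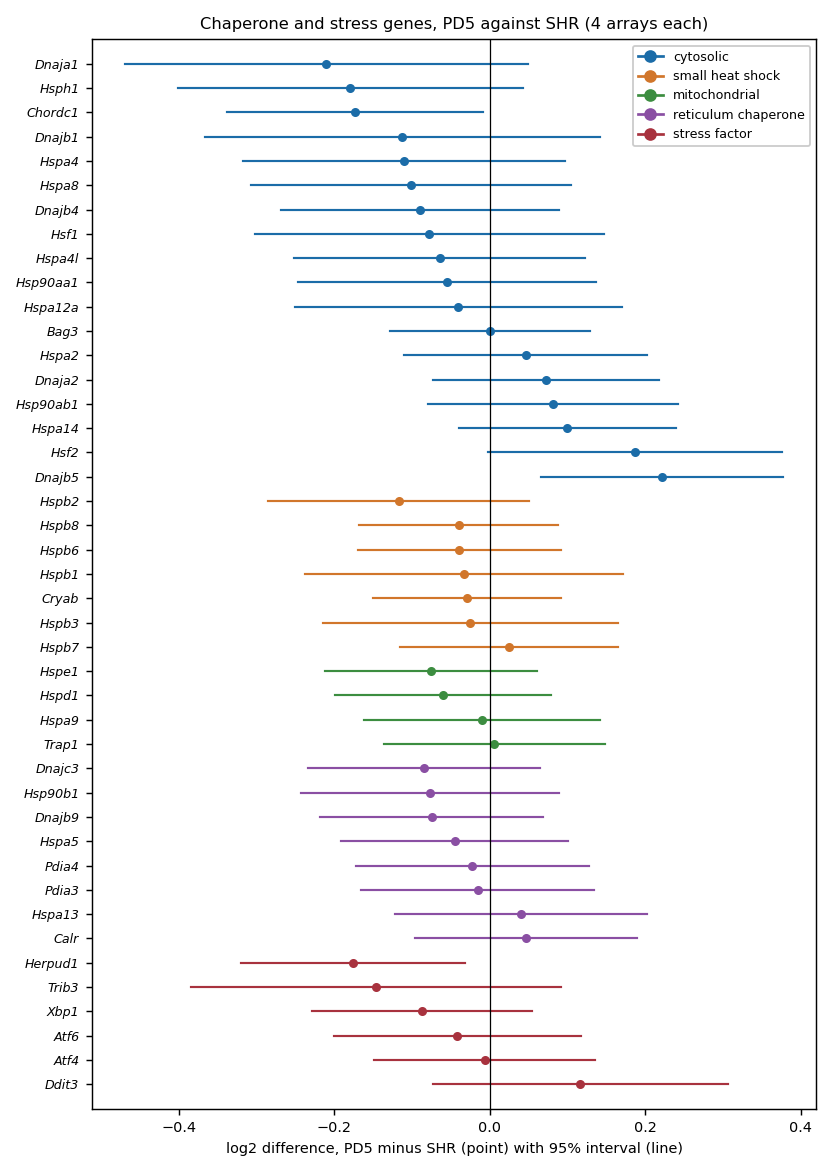
Log2 difference, PD5 minus SHR, on the horizontal axis for the 43 measured genes, with 4 arrays per strain, ordered by difference within each compartment (colour). Points are differences and lines 95% intervals of the limma fit: the intervals of Dnajb5, Chordc1 and Herpud1 leave out 0, and none reaches -0.5 or 0.5.

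The cytosolic group held 18 measured members, of which 11 were lower in PD5, with a median difference of -0.06, and 0 passed over all genes. With a gene taken as the median of its probe sets the median difference of the group was 0.02. The largest differences below 0 were in the J-domain gene Dnaja1, which stimulates HSP70 proteins, in Hsph1, an exchange factor that releases HSP70 from its substrates, and in Chordc1. Dnaja1 lay at 10.57, 10.82, 10.84 and 11.05 in PD5 animals 207, 209, 210 and 212, and at 10.81, 11.20, 11.05 and 11.05 in SHR animals 213, 215, 218 and 219. PD5 207 was the lowest of the 8 and SHR 215 the highest, and the strains overlapped. The difference was -0.21 (SE 0.11, adjusted p = 0.929 in limma), and -0.13 without PD5 207.

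Hsph1 lay at 8.40, 8.53, 8.64 and 8.75 in PD5 and at 8.63, 8.86, 8.65 and 8.91 in SHR, with animals in the same order as above. PD5 207 was again the lowest, and PD5 210 and 212 lay within the SHR range. The difference was -0.18 (SE 0.10, adjusted p = 0.929 in limma), and -0.12 without PD5 207.

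Chordc1 lay at 9.71, 9.74, 9.79 and 9.95 in PD5 and at 9.99, 10.05, 9.95 and 9.89 in SHR. Only PD5 212 reached into the SHR range. Its difference was -0.17 (SE 0.07, 95% interval -0.34 to -0.01), with an unadjusted p of 0.0412 and an adjusted p of 0.844 in limma. Within these genes the probe sets ran mostly the same way: 8 of 8 probe sets of Dnaja1 were lower in PD5, 15 of 15 of Hsph1 and 11 of 12 of Chordc1. Probe sets of 1 gene read the same RNA and are not replicates of the strain.

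Dnajb5, a J-domain gene whose protein takes part in a redox-sensitive complex with the histone deacetylase HDAC4 in mouse cardiomyocytes, ran the other way. It lay at 8.61, 8.75, 8.68 and 8.78 in PD5 and at 8.41, 8.58, 8.53 and 8.42 in SHR. All PD5 animals were above all SHR animals, and the difference was 0.22 (SE 0.07, 95% interval 0.07 to 0.38), 1.17-fold, with an adjusted p of 0.668 in limma. All 7 probe sets were higher in PD5. A single probe set carried much of the difference: its 4 PD5 values were 9.80 ± 0.09 and its 4 SHR values 8.96 ± 0.51 (mean ± SD), a difference of 0.85, and without it the gene difference was 0.12 and the strains overlapped, from 8.43 to 8.61 in PD5 and from 8.34 to 8.51 in SHR.

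**Figure D2:**
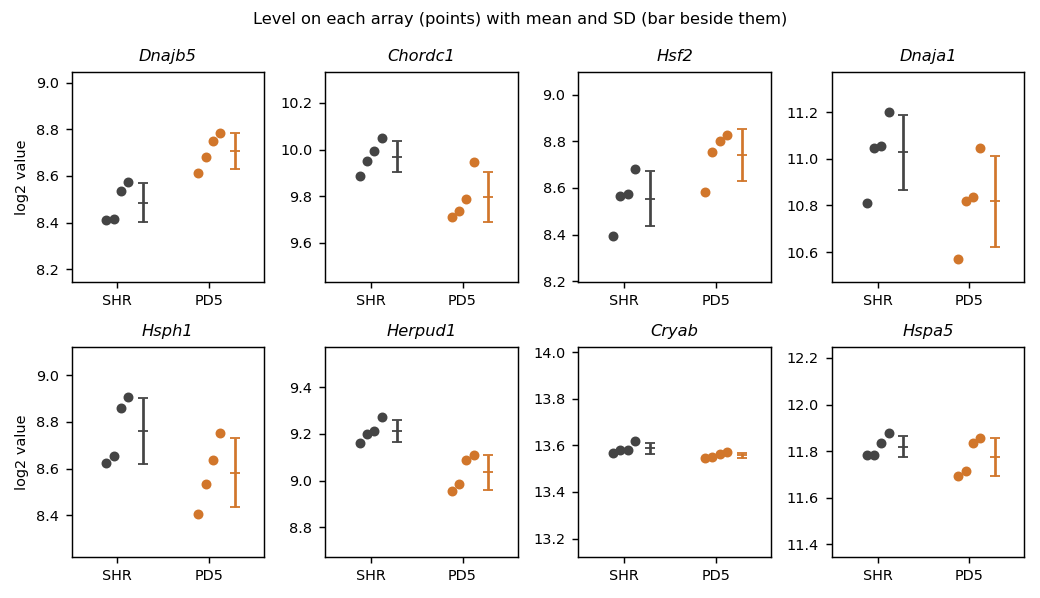
Log2 values of 8 genes on each array (points; SHR grey, PD5 orange), with the strain mean and SD (n = 4) as a bar beside the points; each panel spans 0.9 log2 units. Dnajb5 and Herpud1 separate the strains, the others overlap, and Cryab varies least.

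The constitutive HSP70 gene Hspa8 lay at 10.82, 10.88, 11.15 and 11.06 in PD5 and at 10.97, 11.02, 11.16 and 11.17 in SHR, a difference of -0.10 (SE 0.09), which was -0.01 without 1 of its 4 probe sets. Dnajb1, the main J-domain partner of inducible HSP70, lay at 7.90, 7.92, 7.83 and 8.37 in PD5 and at 8.14, 8.14, 8.07 and 8.12 in SHR, a difference of -0.11 (SE 0.11). In Dnajb1, 3 PD5 animals were below every SHR animal and PD5 212 was above all of them. Without PD5 212, picked out here after its value was seen, the difference was -0.23. The smallest adjusted p of Dnajb1 under any tested alternative was 0.789 in limma. With the median of the probe sets the difference was 0.005.

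The HSP90 genes differed in sign, and neither interval excluded 0. Hsp90aa1, the inducible form, lay between 10.75 and 10.98 in SHR, with PD5 207 below that range at 10.70 and PD5 212 above it, a difference of -0.06. Hsp90ab1, the constitutive form, ran from 9.32 to 9.57 in PD5 and from 9.30 to 9.45 in SHR, a difference of 0.08. For the exchange factor genes the differences were -0.11 for Hspa4, whose lowest animal was PD5 212 at 10.07 with the others between 10.36 and 10.52, and -0.06 for Hspa4l, which ran from 7.05 to 7.33 over the 8 arrays. The low Hspa4 value comes from 1 of 21 probe sets, at 1.66 in PD5 212 and between 9.66 and 9.93 on the other arrays. Without it Hspa4 lay between 10.39 and 10.55 on all arrays, with a difference of -0.01, and without PD5 212 the difference was -0.02. In Hspa4l 1 of 20 probe sets was likewise low in PD5 212, at 5.24 with the others between 7.64 and 8.53, and without it the difference was -0.01. The J-domain genes Dnaja2 (8.89 to 9.11) and Dnajb4 (10.72 to 11.03) had differences of 0.07 and -0.09. Hspa14, a gene of a ribosome-associated HSP70 (6.62 to 6.84), had a difference of 0.10, Hspa2, an HSP70 gene known for its role in testis (6.01 to 6.26), of 0.05, and the distant family member Hspa12a (6.15 to 6.52), of -0.04. Bag3, which links HSP70 to small heat shock proteins in muscle and to autophagy, lay between 10.26 and 10.37 on all 8 arrays, with a difference of 0.00 and a 95% interval from -0.13 to 0.13.

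The inducible HSP70 genes Hspa1a and Hspa1b could not be told apart. They are near-identical copies, and all 3 probe sets that name either name both, so they fall outside the rule for a gene value. The brightest of these lay at 8.32, 8.38, 8.64 and 9.01 in PD5 and at 8.19, 8.60, 8.29 and 8.56 in SHR. PD5 212 was the highest of the 8, as it was for Dnajb1, and the strains overlapped. Its difference was 0.18 (SE 0.19, 95% interval -0.25 to 0.60), and the other shared probe sets were at 0.35 (SE 0.26) and -0.03 (SE 0.21), each with an adjusted p of 0.998 or above over all probe sets. Hspa1l, a related HSP70 gene, was named by no probe set of the annotation.

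Of the regulators, Hsf1, the main heat shock factor, had means of 8.06 ± 0.14 in the 4 PD5 and 8.13 ± 0.16 in the 4 SHR animals (SD), a difference of -0.08 (SE 0.10). Its probe sets disagreed, with 9 of 12 lower and 1 higher by 0.41 at an unadjusted p of 0.00649. Hsf2 lay at 8.80, 8.83, 8.58 and 8.75 in PD5 and at 8.56, 8.57, 8.68 and 8.40 in SHR. The strains overlapped through PD5 210 and SHR 218, and the difference was 0.19 (SE 0.08, adjusted p = 0.873 in limma). With the median of its 13 probe sets in place of the mean it was -0.035, so its direction depends on the summary.

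Promoters were read from RefSeq (GRCr8, the genome of the BN reference strain, not of these animals) for 36 of the 46 members, as windows of 250 bases before to 50 bases after the gene start. A heat shock element was searched as 3 units, GAANNTTCNNGAA or TTCNNGAANNTTC, on both strands. It was found in 6 of the 36 windows, or 16.7%, and in 0.798% of all 33469 windows of that length. These 6 genes are Hspa8, Hsph1, Dnaja1, Chordc1 and the mitochondrial pair Hspd1 and Hspe1. The members were listed as heat shock and stress genes, so the shares of windows are a description and not a test. The shorter form of 2 units, GAANNTTC or TTCNNGAA, which lies inside the longer one, was found in 14 of 36 windows and in 15.9% of all. The stretches around the longer form are shown because these genes include Dnaja1, Hsph1 and Chordc1, described above, with the matches in capitals.
Hsph1: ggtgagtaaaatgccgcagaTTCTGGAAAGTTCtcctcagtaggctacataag
Dnaja1: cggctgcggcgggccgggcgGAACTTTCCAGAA
Chordc1: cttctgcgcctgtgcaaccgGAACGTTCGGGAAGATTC
Hspa8: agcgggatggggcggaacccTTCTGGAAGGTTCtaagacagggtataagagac
Hspe1: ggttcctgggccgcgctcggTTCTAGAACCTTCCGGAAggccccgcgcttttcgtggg
The stretches lie on the plus strand at chr12:10427312-10427364 (Hsph1), chr5:60638393-60638425 (Dnaja1), chr8:23650811-23650848 (Chordc1), chr8:50080439-50080491 (Hspa8) and chr9:64084242-64084299 (Hspe1). The capitals begin 36 bases before the start of Hsph1, 55 before that of Hspa8 and 65 before that of Hspe1, and at transcribed base 10 of Dnaja1 and 11 of Chordc1. Hspa8 holds a second match 213 bases before its start, and Chordc1 a further match that is not shown.

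By the mean of the probe sets all 6 genes with the longer element had a difference below 0, as did 31 of all 43 measured members. The 6 differences ran from -0.21 to -0.06, with a median of -0.14, and 0 passed over all genes. Hspd1 and Hspe1 share the same element, so the 6 are not separate promoters. With the median of the probe sets 5 of 6 were below 0, and Hspa8 was at 0.02. Among the 77 other tested genes with the element, 46 were below 0, with a median of -0.01. With the shorter form 12 of 14 members were below 0, or 8 with the median of the probe sets. Of the 1888 other tested genes with that form 936 were below 0 by the mean. Across the 8 arrays, the 15 pairs of the 6 members with the longer element had correlations above 0 in 12 pairs. Of these pairs 0 passed adjustment over the 15, and pairs of other genes were not counted. The closest pair was Hsph1 and Dnaja1 (Pearson's r = 0.889, exact permutation p = 0.00481, adjusted p = 0.0722; Spearman's rho = 0.81, exact permutation p = 0.0218). For this pair r was 0.883 without the 2 arrays farthest from the median on the first axis, and 0.835 for deviations from the strain means. Over all 15 pairs, r of such deviations ran from -0.493, for Hspa8 and Hspd1, to this 0.835.

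Of 7 small heat shock proteins 6 were lower in PD5, with a median of -0.03 and 0 past the threshold, and the differences ran from -0.12 for Hspb2 to 0.03 for Hspb7. Cryab, the gene of alpha-B crystallin, which guards desmin filaments, lay at 13.57, 13.55, 13.55 and 13.56 in PD5 and at 13.62, 13.58, 13.57 and 13.58 in SHR. All 8 values fell within 0.07, and the difference was -0.03 (95% interval -0.15 to 0.09). The highest value of any probe set on these arrays was 14.2, so Cryab and Hspb6 lay near the top of the scale, where intensities can understate a difference.

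Hspb6, whose protein is phosphorylated on beta-adrenergic stimulation and protects heart muscle cells, lay at 13.06, 13.10, 13.08 and 13.11 in PD5 and at 13.21, 13.09, 13.09 and 13.12 in SHR, a difference of -0.04 (SE 0.06). Hspb8, the partner of Bag3, lay at 10.63, 10.70, 10.60 and 10.70 in PD5 and at 10.68, 10.69, 10.70 and 10.72 in SHR, also a difference of -0.04 (SE 0.06). In both genes the strains overlapped. Hspb2, which forms a complex with Hspb3, had the largest difference of the group: it lay at 9.71, 9.63, 9.89 and 9.78 in PD5 and at 9.86, 9.78, 9.92 and 9.93 in SHR, a difference of -0.12 (SE 0.07, adjusted p = 0.966 in limma). Hspb3 itself, from 1 probe set, lay at 8.05, 8.23, 8.38 and 8.29 in PD5 and at 8.26, 8.15, 8.29 and 8.35 in SHR, a difference of -0.03 (SE 0.08), and PD5 animals were both its lowest and its highest. Hspb1, which stabilises actin filaments, lay at 10.29, 10.59, 10.34 and 10.63 in PD5 and at 10.42, 10.52, 10.56 and 10.48 in SHR. Both extremes were again PD5 animals, and the difference was -0.03 (SE 0.09). Hspb7, which binds filamin C and is needed for the assembly of thin filaments in mouse heart, ran from 12.02 to 12.17, a difference of 0.03.

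Of 4 mitochondrial chaperones 3 were lower in PD5, with a median of -0.04, and 0 passed. Differences were -0.06 (SE 0.06) for Hspd1 and -0.08 (SE 0.06) for Hspe1, which encode the chaperonin HSP60 and its lid, -0.01 (SE 0.07) for Hspa9, the mitochondrial HSP70 that pulls in imported proteins, and 0.01 (SE 0.06) for Trap1, the mitochondrial HSP90. Hspd1 lay at 10.93, 10.91, 10.90 and 10.94 in PD5 and at 11.10, 10.96, 10.95 and 10.92 in SHR, and Hspe1 at 10.23, 10.15, 10.13 and 10.27 in PD5 and at 10.26, 10.33, 10.26 and 10.24 in SHR. SHR 213 was highest for Hspd1 and SHR 215 for Hspe1, and the strains overlapped in both. These 2 genes stand head to head and share the element printed above: the same bases lie 48 to 65 bases before the start of Hspe1 and 225 to 242 bases before that of Hspd1, on the opposite strand. Hspa9 lay at 11.91, 11.91, 11.76 and 11.85 in PD5 and at 11.95, 11.89, 11.85 and 11.78 in SHR. Trap1 lay at 9.45, 9.41, 9.39 and 9.40 in PD5 and at 9.48, 9.38, 9.30 and 9.47 in SHR. SHR 213 was the highest animal for both, and the strains overlapped.

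Among 8 reticulum chaperones 6 were lower in PD5, the median difference was -0.03 (0.01 with the median of the probe sets) and 0 passed. Hspa5 encodes BiP, the reticulum HSP70 that holds the stress sensors inactive. It lay at 11.69, 11.84, 11.71 and 11.86 in PD5 and at 11.78, 11.88, 11.79 and 11.84 in SHR. The strains overlapped, with a difference of -0.05 (SE 0.06, 95% interval -0.19 to 0.10). Hsp90b1, the reticulum HSP90, lay at 10.23, 10.26, 10.06 and 10.15 in PD5 and at 10.16, 10.30, 10.35 and 10.19 in SHR, a difference of -0.08 (SE 0.07). Calr, a lectin chaperone that also buffers calcium, lay at 11.08, 11.12, 11.21 and 11.19 in PD5 and at 11.16, 11.11, 11.01 and 11.13 in SHR, a difference of 0.05 (SE 0.06). With the median of the probe sets all 3 signs turned, to 0.055 for Hspa5, 0.091 for Hsp90b1 and -0.0025 for Calr.

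The J-domain partners of BiP, Dnajb9 and Dnajc3, were at -0.07 (SE 0.06) and -0.08 (SE 0.07). Dnajb9 lay at 9.24, 9.29, 9.28 and 9.38 in PD5 and at 9.31, 9.34, 9.41 and 9.44 in SHR. Dnajc3, which also inhibits the kinase PERK, lay at 8.48, 8.52, 8.65 and 8.51 in PD5 and at 8.59, 8.63, 8.57 and 8.71 in SHR. In each gene 3 PD5 animals were below every SHR animal and 1 was not. Pdia3, a disulfide isomerase gene, lay at 11.87, 11.96, 11.75 and 11.89 in PD5 and at 11.89, 11.93, 11.89 and 11.82 in SHR, a difference of -0.02. Hspa13, a reticulum member of the HSP70 family, lay at 8.29, 8.25, 8.16 and 8.25 in PD5 and at 8.17, 8.36, 8.11 and 8.16 in SHR, a difference of 0.04. Both overlapped, and so did Pdia4, another disulfide isomerase gene, which ran from 9.09 to 9.28 with a difference of -0.02.

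The reticulum stress element (ERSE), searched as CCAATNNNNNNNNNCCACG on both strands, was found in 5 of the 36 member windows, or 13.9%, and in 0.0657% of all windows. The 5 genes are Hspa5, Hsp90b1, Calr, Dnajc3 and Xbp1. No window among the 36 held both this motif and the heat shock element of 3 units. The stretches around it are shown for 3 of them, with the matches in capitals.
Hspa5: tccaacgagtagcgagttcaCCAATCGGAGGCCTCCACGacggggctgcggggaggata
Dnajc3: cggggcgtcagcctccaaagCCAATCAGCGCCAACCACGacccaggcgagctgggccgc
Xbp1: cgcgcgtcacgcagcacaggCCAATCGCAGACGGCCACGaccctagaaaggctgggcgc
They lie on the plus strand of GRCr8 at chr3:38452953-38453011 (Hspa5), chr15:102432514-102432572 (Dnajc3) and chr14:84604538-84604596 (Xbp1), with the capitals beginning 43, 133 and 65 bases before the start. The 5 genes had differences from -0.09 to 0.05, with 4 of 5 below 0, or 3 of 5 with the median of the probe sets and 5 of 5 with the brightest. Among the 12 other tested genes with the motif, 3 were below 0 by the mean. A match describes these letters only. The members were listed as stress genes, so here too the shares of windows are a description and not a test.

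Stress factors were lower in 5 of 6 members (Atf6 only by 1 dim probe set), with a median of -0.06, or 0.06 with the brightest probe set of each gene, and 0 passed. Herpud1, which organises the removal of misfolded proteins from the reticulum membrane, lay at 8.99, 8.95, 9.11 and 9.09 in PD5 and at 9.21, 9.16, 9.20 and 9.27 in SHR. All PD5 animals were below all SHR animals. The difference was -0.18 (SE 0.06, 95% interval -0.32 to -0.03), with an unadjusted p of 0.0218 and an adjusted p of 0.775 in limma, and 9 of its 10 probe sets were lower in PD5.

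The transcription factor genes were closer to 0. Xbp1, whose messenger is spliced by the sensor IRE1, lay at 10.66, 10.56, 10.61 and 10.61 in PD5 and at 10.63, 10.70, 10.66 and 10.81 in SHR, a difference of -0.09 (SE 0.06), and its spliced form was not analysed here. Atf4, which is regulated mainly through its translation, lay at 10.46, 10.43, 10.32 and 10.35 in PD5 and at 10.37, 10.44, 10.45 and 10.34 in SHR, a difference of -0.01 (SE 0.06). Atf6, which is activated by cleavage, ran from 8.65 to 8.85, a difference of -0.04 (SE 0.07). Its sign rests on 1 dim probe set of 18, between 1.44 and 5.82, without which the difference was 0.02, and 12 of the 18 were higher in PD5. The strains overlapped in all 3 genes. Ddit3, the gene of CHOP, lay at 8.80, 8.61, 8.62 and 8.62 in PD5 and at 8.52, 8.62, 8.36 and 8.67 in SHR, a difference of 0.12 (SE 0.08). PD5 207 was the highest of the 8 for Ddit3 and SHR 218 the lowest. Trib3, a target of ATF4 and CHOP, was dim, at 5.49, 5.54, 5.36 and 5.12 in PD5 and at 5.48, 5.58, 5.67 and 5.38 in SHR, with a difference of -0.15 (SE 0.11).

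The animal with the lowest or highest value was counted over the members, as a description without a test. Genes can vary together, so members are not separate observations of an animal. The mean deviation of an array from the gene means ran from -0.04 (PD5 207) to 0.04 (SHR 215) over all members. PD5 207 was the lowest of the 8 arrays for 14 of 43 members, or 32.6%, beside 12.3% of all genes, and PD5 210 for 11, or 25.6%, beside 14.4%. SHR 215 was the lowest for 0 members, beside 9.17% of all genes, and SHR 219 was the highest for 11, or 25.6%, beside 18.4%. Within the cytosolic group PD5 212 was the highest for 7 of 18 members, or 38.9%, beside 9.47% of all genes. PD5 207 was the lowest for 6, or 33.3%, beside 12.3%, and both are PD5 animals. Of 4 mitochondrial members PD5 210 was the lowest for 3 and SHR 213 the highest for 3, beside 14.4% and 11.5% of all genes. The arrays and groups named here were picked with the counts in view.

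**Figure D3:**
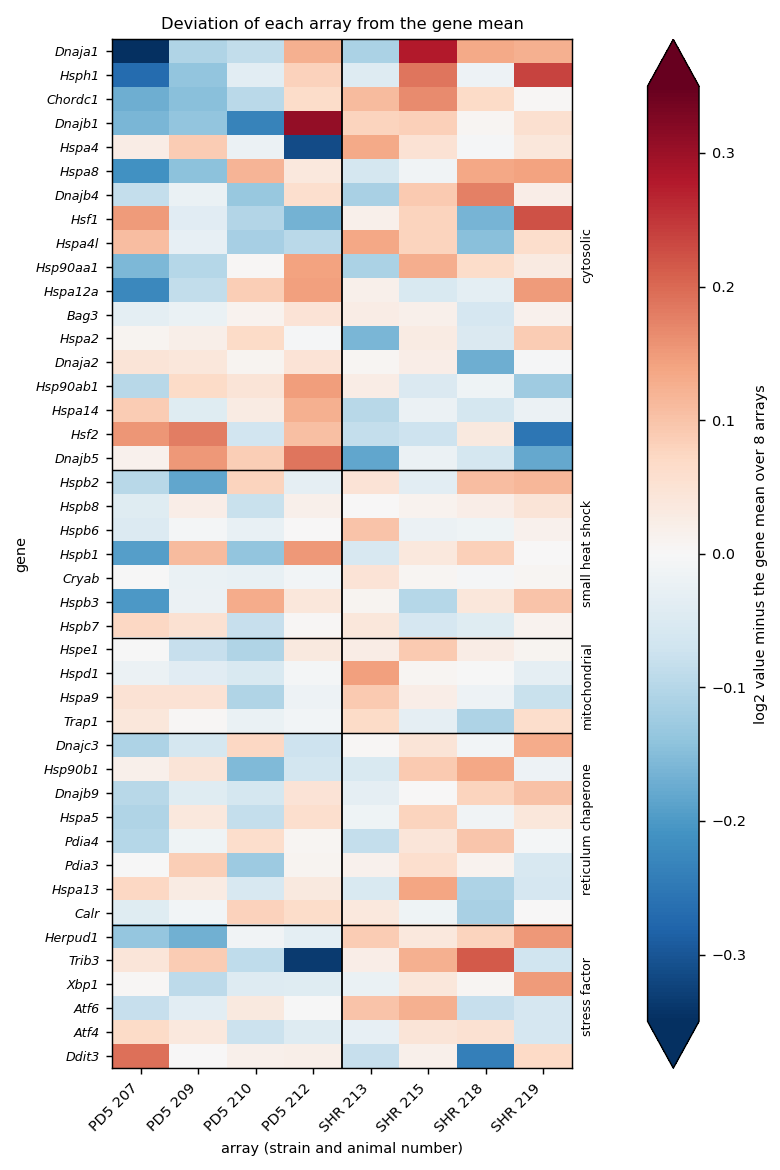
Log2 value minus the gene mean over 8 arrays (colour, red above and blue below) for each measured gene (rows, by compartment) and animal (columns, PD5 left of the black line). PD5 207 is low for Dnaja1, Hsph1, Chordc1 and Hspa8 among others, while PD5 212 is high for Dnajb1 and low for Trib3; its low Hspa4 cell rests on 1 of 21 probe sets.

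Of the 386 probe sets 0 passed when p was adjusted over the whole array, where 0.000908% passed. At an unadjusted p under 0.05 there were 15, or 3.89%, beside 4.98% of all, with 8 lower and 7 higher in PD5. In 32 of 43 genes the probe sets ran both ways. Hsp90b1 held 4 of the 15: 3 were lower, at -0.88, -0.74 and -0.64, and 1 was higher, at 0.35, while 9 of its 18 probe sets lay on either side of 0. The 3 lower ones were dim for this gene, with PD5 means of 5.5, 7.6 and 5.3 beside a gene mean of 10.17. The higher 1 had a PD5 mean of 11.8. In Hspa12a, 1 probe set had means of 3.89 ± 0.68 in the 4 PD5 and 5.36 ± 0.32 in the 4 SHR animals (SD), where all PD5 animals were below all SHR animals, and another higher by 0.66. Without the first, the gene difference turned from -0.04 to 0.07.

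**Figure D4:**
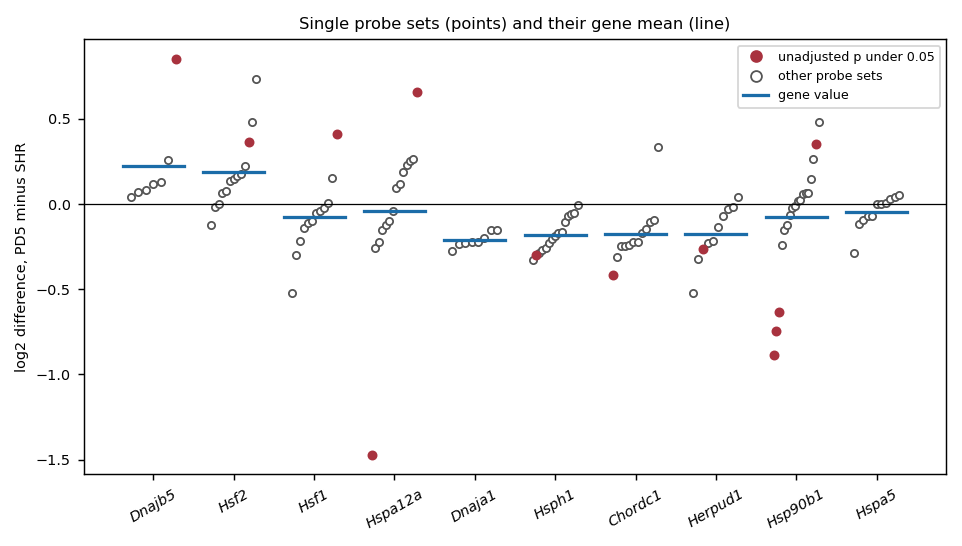
Log2 difference, PD5 minus SHR, of single probe sets (points; red at an unadjusted p under 0.05) and of the gene (blue line) for 10 genes. Probe sets of Dnaja1 and Hsph1 lie on the same side of 0, those of Hsf1, Hspa12a and Hsp90b1 on both sides, and a single probe set at 0.85 stands apart in Dnajb5.

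Further genes of protein folding and stress were read from 7 lists, of which 98 of 109 genes were measured. Over all genes 1 passed, Ddit4, an inhibitor of mTOR that ATF4 and glucocorticoid hormones both raise, which fell by 1.03 in PD5 (adjusted p = 0.0404 in limma), and it no longer passed without any of PD5 207, 209, 210 or 212, or SHR 213, 218 or 219. In the same list Atf3 was at 0.91 (SE 0.19), with all PD5 animals above all SHR animals (adjusted p = 0.289). Over 13 genes this list, of ATF4 and CHOP targets, had a median of 0.04, with 6 lower and 7 higher. In it 3 genes, or 23.1%, had an unadjusted p under 0.05 in limma, beside 5.68% of all genes. Of these 2 were lower, Ddit4 and Mthfd2 (-0.33), and 1 was higher, Atf3. The groups did not overlap in 2, or 15.4%, beside 3.46%, and 1 passed, beside 0.052%. The list was chosen with earlier results of these data known, so these shares are a description and not a test of the list. Atf4 and Ddit3 themselves were at -0.01 and 0.12. The activity of these factors was not tested.

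In the other 6 lists 0 genes passed. Co-chaperones of the cytosol had a median of -0.03 over 21 genes, with Dnajb6 at -0.15 and St13 at -0.14, and the chaperonin TRiC with prefoldin a median of -0.03 over 12 genes, with Cct3 at -0.10 and Cct2 at -0.06. Mitochondrial folding had a median of -0.04 over 11 genes, with Grpel1, the exchange factor of Hspa9, at -0.21 and Hscb at 0.13. Reticulum folding had a median of -0.01 over 17 genes, with Sil1, the exchange factor of BiP, at -0.15 and Ero1b at 0.15. Reticulum degradation had a median of 0.02 over 11 genes, with Edem1 at -0.21 and Derl3 at 0.23, and stress sensors with translation control a median of 0.03 over 13 genes, with Ppp1r15a, which reverses the block of translation, at 0.27 and Mbtps2 at -0.14. The sensor genes Ern1 and Eif2ak3 were at 0.05 and 0.02. Of these 98 genes 6 had an unadjusted p under 0.05, or 6.12%, beside the 5.68% of all genes given above.

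Heart muscle, as labelled, fits the markers: the cardiomyocyte genes Myh6, Tnnt2, Ryr2 and Pln lay between 11.02 and 13.36 on every array, with differences within 0.05 of 0. Myl2 and Actc1 of that list were not measured, and the chamber of the heart was not tested. Array medians ran from 6.93 to 6.98. Some marker lists of other cells varied between animals. The fat gene Ucp1 lay at 9.05 in PD5 210 and between 3.79 and 4.83 on the other arrays. Of the atrial genes, Myl7 lay between 7.23 and 10.41, Sln between 7.25 and 10.22 and Nppa between 11.48 and 12.28. Macrophage markers had a mean level between 7.82 and 7.87 in PD5 and between 7.93 and 8.10 in SHR, with 3 of 4 lower. Cd163 was at -0.41, Adgre1 and Csf1r at -0.09 and Cd68 at 0.05, and the strains overlapped in each gene. Mesothelial and thymic markers had a mean level between 5.48 and 5.79 in PD5 and between 5.74 and 6.50 in SHR, with 4 of 4 lower. The part of these marker lists in the chaperone values was not tested. In whole tissue, fewer cells of a type and less RNA per cell cannot be told apart.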

How the data were processed

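The authors deposited log2 values for 220231 probe sets on 8 arrays. Per the submitters' processing notes they used Partek 6.6, and the sources used here do not give the background correction, normalization or summary. RNA had passed an integrity limit, per the labels' protocols. No litter or batch is labelled, and the strains share no animal number. Samples carry animal numbers and no further origin, so p-values measure the spread between these animals.

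The values were used as deposited. Of all probe sets, 166557 named 1 gene, giving 17309 genes (95 symbols found no current name in the GRCr8 gene table). A gene was the mean of its probe sets, with no filter on dim genes. PD5 minus SHR was tested with limma 3.58.1 in R 4.3.3 (lmFit, eBayes, two-sided, Benjamini-Hochberg over all genes or all probe sets, threshold 0.05). The number of arrays limits the precision. A test on simulated data drew from the mean and spread of each of the 17309 genes. In it 62% of genes changed by 0.5 on the log2 scale and 90% of those changed by 1 were recovered, with 14 unchanged genes called. Sizes of 1.5 and 2 were also included. Recovery at sizes below 0.5, where all differences of the members lie, was not tested. Recovery where as few genes pass as the 9 in the deposited values was not tested either.

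Members and lists were chosen with earlier results of these data known, so lists are described by counts and medians beside all genes. Compartments follow the known place of each protein. Every measured member is named with its level and difference. Values on every array are given for some members of each compartment. These are the 4 with the smallest unadjusted p, the 2 with the widest range and the 2 with the highest mean. Of the shared Hspa1a and Hspa1b probe sets only the brightest is given in this way. Of each further list the 2 genes with the smallest p and any that passed are named with their difference only. Hsph1, Mthfd2, Ern1, Eif2ak3 and single probe sets were singled out after their values were seen. Where values tie, the first array counts as lowest or highest. Alternatives changed the scaling, the summary per gene, the filter, the variance model and the arrays. Protein sequences were not used here.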

Additional observations from a re-analysis of the deposited data

Results flagged for a closer look

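In groups of 4, the gap from the lowest or highest animal to its nearest neighbour was set against the range of the group, with Dixon's 95% critical value of 0.829. Of 86 groups, 43 genes in 2 strains, 3 exceeded it, where chance flags about 1 group in 20. Ddit3, the CHOP gene, lay at 8.80 in PD5 207 and between 8.61 and 8.62 in the other PD5 animals. The J-domain gene Dnaja2 lay at 8.89 in SHR 218 and between 9.06 and 9.09 in the other SHR animals. Bag3 lay at 10.26 in SHR 218 and between 10.34 and 10.35 in the other SHR animals.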

How the results depend on the processing

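No member passed over all genes under any of the 15 alternatives that were tested, where the smallest adjusted p of a member in limma was 0.393. The count of all genes past the threshold was 9, and was 5 with median centring, 0 with the brightest probe set, 47 with a trended robust variance model, 0 without PD5 210 and SHR 219 (chosen after seeing the data), and between 1 and 7 without any 1 array. The 1 gene of the further lists that passed, Ddit4, gave a count of 0 with median centring, with the brightest probe set and without PD5 210 and SHR 219, and between 0 and 1 without any 1 array. Members with an unadjusted p under 0.05 numbered 3, and 1 with the median of the probe sets, 5 with the trended robust model and between 1 and 6 without any 1 array. Medians moved with the median of the probe sets to -0.005 for all members, 0.019 for cytosolic and 0.0075 for reticulum chaperones, and with the brightest probe set to 0.06 for stress factors.

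Of 43 member differences, 21 kept their sign in all 16 alternatives, 1 (Hspb8) reached 0 with the brightest probe set, and 21 turned in at least 1. With the median of the probe sets the sign turned for Hspa4l (0.071), Hspa8 (0.02), Hspa12a (0.049), Dnajb1 (0.005), Hsf1 (0.053), Hsf2 (-0.035), Hspa9 (0.019), Hspa5 (0.055), Hsp90b1 (0.091), Calr (-0.0025) and Pdia4 (0.03). With the brightest probe set it turned for Hsp90ab1 (-0.01), Hsf1 (0.005), Trap1 (-0.063), Calr (-0.005), Pdia3 (0.0025), Atf4 (0.11), Atf6 (0.13) and Trib3 (0.0075), with median centring for Atf4 (0.00083), and without PD5 210 and SHR 219 for Hsf1 (0.0042), Hspb1 (0.0022) and Pdia3 (0.0027). Without the probe set of the largest difference (added after seeing the data, with no test) it turned for Hspa2 (-0.021), Hspa12a (0.069), Bag3 (-0.022), Hspa9 (0.0012), Trap1 (-0.020), Pdia3 (0.0027), Pdia4 (0.0055), Atf4 (0.018) and Atf6 (0.016). Hspa2 was also at 0 without SHR 213. The cause was not tested. No paired analysis was possible because the strains share no animal number. Without any 1 array the ranges that crossed 0 were Hspa12a (-0.095 to 0.028), Bag3 (-0.019 to 0.012), Hspb1 (-0.090 to 0.025), Hspb3 (-0.072 to 0.037), Hspa9 (-0.038 to 0.024), Trap1 (-0.029 to 0.029), Pdia3 (-0.047 to 0.024), Pdia4 (-0.054 to 0.0067) and Atf4 (-0.030 to 0.017).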
